A study of Rattus norvegicus and Mus musculus with 24 samples.

Results

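The brush border is the carpet of microvilli on the urine-facing surface of the kidney proximal tubule cell. The genes described here were 10 that encode its enzymes and its microvillus proteins, namely ALPL, ANPEP, DPP4, MEP1A, MEP1B, TREH, VIL1, EZR, CDHR2 and CDHR5. They were chosen by name, as the rows of the mouse and rat gene tables that carry these symbols. All 10 stood among 17376 symbols of the mouse table and 9 stood among 14931 symbols of the rat table. TREH in rats was not analysed here.

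The data were bulk RNA sequencing libraries, 1 per animal, from C57BL/6 mice (4 Ctns KO, 4 Ctns WT) and Sprague-Dawley rats (8 of each genotype), with littermates as controls. CTNS encodes cystinosin, the transporter that exports cystine from lysosomes, and its loss causes cystinosis. The tissue is given as kidney cortex, while the labels also name proximal tubule cells and microdissected proximal tubules, and the values below were taken as those of cortex tissue of unknown purity. The labels give no age, sex or treatment of the sequenced animals and do not say which part of the gene is missing. Rats carried the animal numbers 17 to 24 or 25 to 32, with 4 KO and 4 WT animals in each range. What the ranges stand for is not stated, so they are called rats 17 to 24 and rats 25 to 32. Library totals ran from 19309449 to 44449859 reads in mice and from 24684097 to 40629873 reads in rats.

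CTNS itself was checked first. Its scaled value in mice (reads divided by the library's 75th percentile) was 0.332 ± 0.0102 in Ctns KO (SD, n = 4) and 0.918 ± 0.0869 in Ctns WT (SD, n = 4), with no overlap. In rats, values are given as CPM (counts scaled to library totals adjusted by TMM factors, which correct for library composition). These factors ran from 0.89 to 0.952 in WT rats 25 to 32 and from 1.001 to 1.076 in KO rats 25 to 32. CTNS stood at 19.1 ± 1.86 CPM in Ctns KO rats (SD, n = 8) and at 22.3 ± 2.98 CPM in Ctns WT rats (SD, n = 8), and the groups overlapped. The edgeR log2 fold change was -0.22 (adjusted p = 0.0511, and 0.0416 by DESeq2). It was -0.11 in rats 17 to 24 (adjusted p = 0.514) and -0.32 in rats 25 to 32 (adjusted p = 0.0391). CTNS reads thus separated the genotypes in mice and did not separate them animal by animal in rats, where KO and WT are used as the labels give them.

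The proximal tubule brush border carries membrane enzymes that cut filtered peptides, phosphate esters and sugars at the cell surface. Its microvilli are built on bundles of actin filaments. Villin, encoded by VIL1, bundles and severs actin, and ezrin, encoded by EZR, ties the bundle to the plasma membrane. The cadherins encoded by CDHR2 and CDHR5 sit at the microvillus tips and bind each other, which links neighbouring microvilli. Transcription factors of the HNF4 family are known to drive many genes of this surface.

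The rat promoters of these genes were searched for short motifs, and their likeness to each other was not measured. Windows were read from RefSeq promoters of the rat assembly GRCr8, which is not the build named in the processing notes, and 9 of the 10 genes were matched. Each line shows the 150 bases that end just before the start of the gene, 5′ to 3′ on the strand of the gene. CDHR2 and CDHR5 are shown because the partners moved in opposite directions in rats. ALPL and MEP1A are shown as examples of genes whose KO values in rats 25 to 32 fell below all WT values. The same held for ANPEP, DPP4, VIL1, EZR and CDHR2. Capitals mark 6-base matches on either strand to CAAAGT (an HNF4 core motif) or GGGCGG (a GC box).
CDHR2 (chr17:9917699-9917848, minus strand): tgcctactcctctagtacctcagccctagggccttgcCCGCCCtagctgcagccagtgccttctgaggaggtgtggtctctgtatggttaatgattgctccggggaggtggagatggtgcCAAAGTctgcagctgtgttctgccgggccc
CDHR5 (chr1:205811093-205811242, minus strand): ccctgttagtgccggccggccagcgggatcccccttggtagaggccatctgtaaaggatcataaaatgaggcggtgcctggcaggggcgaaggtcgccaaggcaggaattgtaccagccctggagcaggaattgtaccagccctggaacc
ALPL (chr5:155289786-155289935, minus strand): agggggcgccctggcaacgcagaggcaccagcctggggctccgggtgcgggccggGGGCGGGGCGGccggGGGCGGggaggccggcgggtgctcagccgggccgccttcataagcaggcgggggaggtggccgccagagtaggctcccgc
MEP1A (chr9:24971751-24971900, plus strand): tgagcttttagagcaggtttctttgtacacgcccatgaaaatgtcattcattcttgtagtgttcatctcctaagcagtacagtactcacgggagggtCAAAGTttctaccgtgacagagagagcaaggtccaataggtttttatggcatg

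Positions of matches are those of the first base, counted back from -1 at the base before the start, over 250 bases. CDHR2 held a match to both motifs, the HNF4 core motif at -30 and the GC box at -113. CDHR5, DPP4, ANPEP and MEP1B held neither. ALPL held GC boxes at -166, -95, -90 and -80, of which the pair at -95 and -90 overlap. MEP1A held the HNF4 core motif at -53. VIL1 and EZR held a GC box, at -54 and -73. Among 33469 rat promoters, 12.9% held the HNF4 core motif and 30.5% the GC box within 250 bases, so a single match to 6 letters is common. These matches describe letters in a window and not binding.

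In the mouse, levels could be compared between genes because the values were divided by the exon length of the gene (mm10, GENCODE annotation). ALPL, the tissue-nonspecific alkaline phosphatase (chr4:137741733-137796384, minus strand), and MEP1A, the alpha subunit of the protease meprin (chr17:43474324-43502812, minus strand), stood highest at 8.19 ± 1.96 and 8.13 ± 0.812 scaled units per kilobase of exon in Ctns WT (SD, n = 4). Their ranges overlapped, from 6.03 to 10.8 for ALPL and from 7.37 to 9.24 for MEP1A. EZR (chr17:6738041-6782784, minus strand) followed at 4.63 ± 0.242.

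CDHR5 (chr7:141269083-141276786, minus strand) and VIL1 (chr1:74409376-74435559, plus strand) stood side by side at 1.85 ± 0.18 and 1.76 ± 0.173 scaled units per kilobase, with overlapping ranges. ANPEP, which encodes aminopeptidase N (chr7:79821803-79861059, minus strand), was at 1.04 ± 0.0705. The lowest levels were those of MEP1B, the beta subunit of meprin, at 0.727 ± 0.177, DPP4, dipeptidyl peptidase 4 (chr2:62330073-62412231, minus strand), at 0.574 ± 0.0479, TREH, the enzyme that splits trehalose (chr9:44673233-44686305, plus strand), at 0.468 ± 0.0458, and CDHR2 (chr13:54701461-54736662, plus strand) at 0.407 ± 0.0514. Along that order, the ranges of the 4 WT mice overlapped between ALPL and MEP1A, CDHR5 and VIL1, ANPEP and MEP1B, MEP1B and DPP4, and TREH and CDHR2. Those of MEP1A and EZR, EZR and CDHR5, and VIL1 and ANPEP were apart, and those of DPP4 and TREH barely so.

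In Ctns KO mice, no brush border gene passed the test. Of 10 genes tested with limma, 0 were called at an adjusted p under 0.05, where 4.32% of all 17376 symbols were called in either direction. At an unadjusted p under 0.05 the count was also 0, and it was 0 with edgeR and 1 with DESeq2 on the recovered reads. Of all symbols, edgeR called 1198 of 13442 tested and DESeq2 1520 of 14593. The median log2 fold change was -0.05, beside 0 for all symbols, and single values ran from -0.39 to 0.08. All 10 KO and WT groups overlapped, whereas 11.6% of all symbols had groups that did not.

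ALPL had the lowest of these log2 fold changes. Its scaled value was 14.6, 15.5, 13.4 and 17.6 in Ctns KO mice 3, 5, 6 and 8 and 20.6, 19.6, 27.2 and 15.2 in Ctns WT mice 1, 2, 4 and 7. WT mouse 7 lay inside the KO range, and WT mouse 4 lay highest. The log2 fold change was -0.39 (SE 0.17, adjusted p = 0.28 by limma), and DESeq2 on the recovered reads called it at -0.46 (adjusted p = 0.0201).

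None of the other mouse genes was called. CDHR2 ran from 1.23 to 1.66 in Ctns KO and from 1.42 to 1.92 in Ctns WT (log2 fold change -0.13, SE 0.07, adjusted p = 0.418 by limma, and -0.23, adjusted p = 0.228 by edgeR on the recovered reads). TREH ran from 0.73 to 0.973 in KO and from 0.882 to 1.09 in WT (log2 fold change -0.08, SE 0.05, adjusted p = 0.484 by limma, and -0.18, adjusted p = 0.264 by edgeR). MEP1A, EZR, DPP4 and VIL1 had log2 fold changes of -0.05, -0.05, -0.03 and -0.10. ANPEP, MEP1B and CDHR5 stood on the other side of 0, at 0.06, 0.08 and 0.05. The panels of the mouse plot give each animal.

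**Figure D1:**
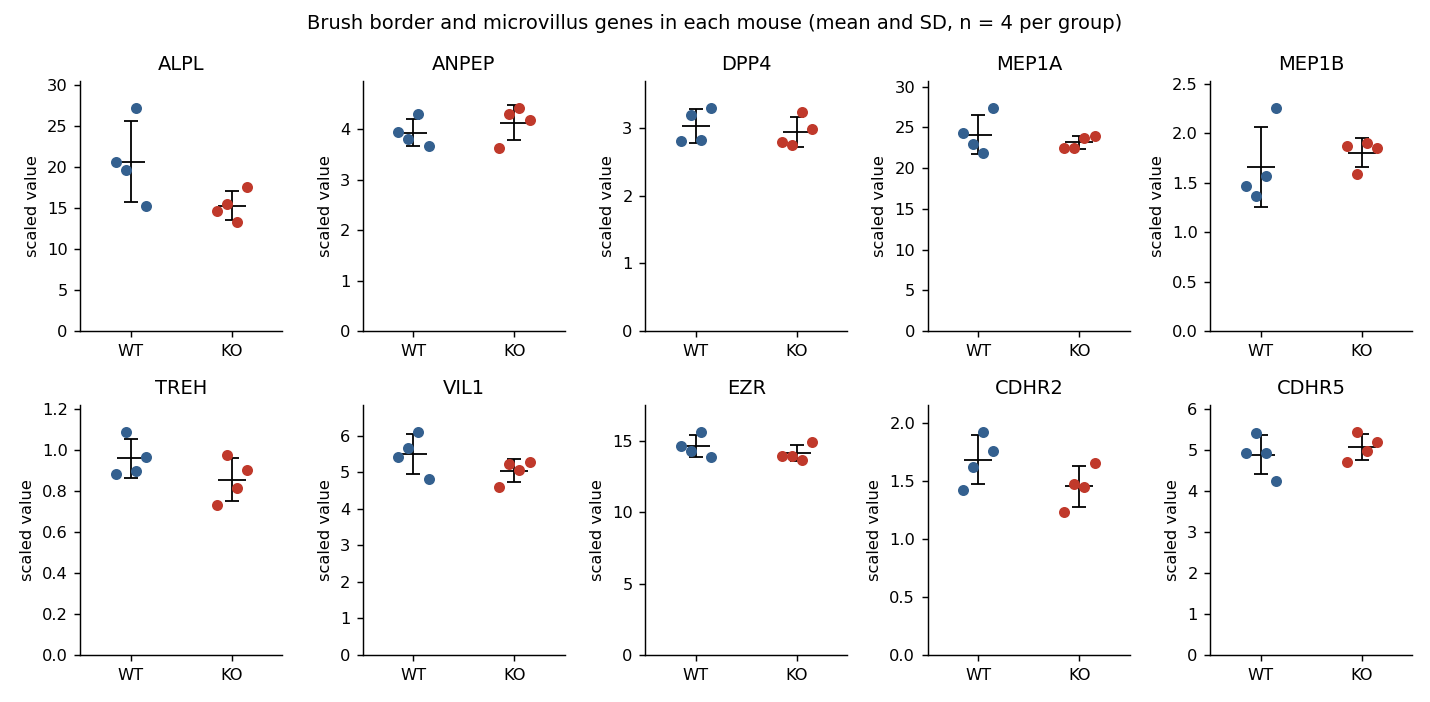
Scaled value (reads over the library's 75th percentile, linear axis from 0) of the 10 genes in each of 4 Ctns WT (blue) and 4 Ctns KO (red) mice, 1 point per animal, with mean and SD in black. KO and WT points overlap in every panel, and ALPL shows the widest gap between the means, 15.3 in KO against 20.6 in WT.

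In rats, some of the brush border genes differed with genotype, and more of them were called in rats 25 to 32 than in rats 17 to 24. Over all 16 rats, edgeR called 3 of 9 genes lower in Ctns KO, where 12.3% of 11584 tested symbols were called lower, and 1 higher, where 15.2% were called higher. The median log2 fold change was -0.26, beside -0.02 for all tested symbols. In rats 17 to 24, 0 of 9 were called, where 7.26% of 11610 symbols were called in either direction, with 1 gene at an unadjusted p under 0.05 and 0 called by DESeq2. In rats 25 to 32, 7 of 9 were called lower, where 22.1% of 11633 symbols were, and 1 was called higher, where 21.8% were. The median was -0.47 in rats 25 to 32, beside -0.01 for all tested symbols, and -0.10 in rats 17 to 24. With the number range as a covariate, 8 of 9 genes were called over all 16 rats, where 38.4% of 11584 symbols were called in either direction.

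KO and WT did not overlap for 8 of 9 genes in rats 25 to 32, where this held for 40.3% of all tested symbols. It held for 1 of 9, EZR, in rats 17 to 24, beside 13.7% of all tested symbols. All 9 genes passed the filter on low counts, and the lowest count of any of them in a rat library was 675 reads, for MEP1B. Cortex tissue holds many cell types, so fewer proximal tubule cells and less of an RNA in each such cell cannot be told apart.

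**Figure D2:**
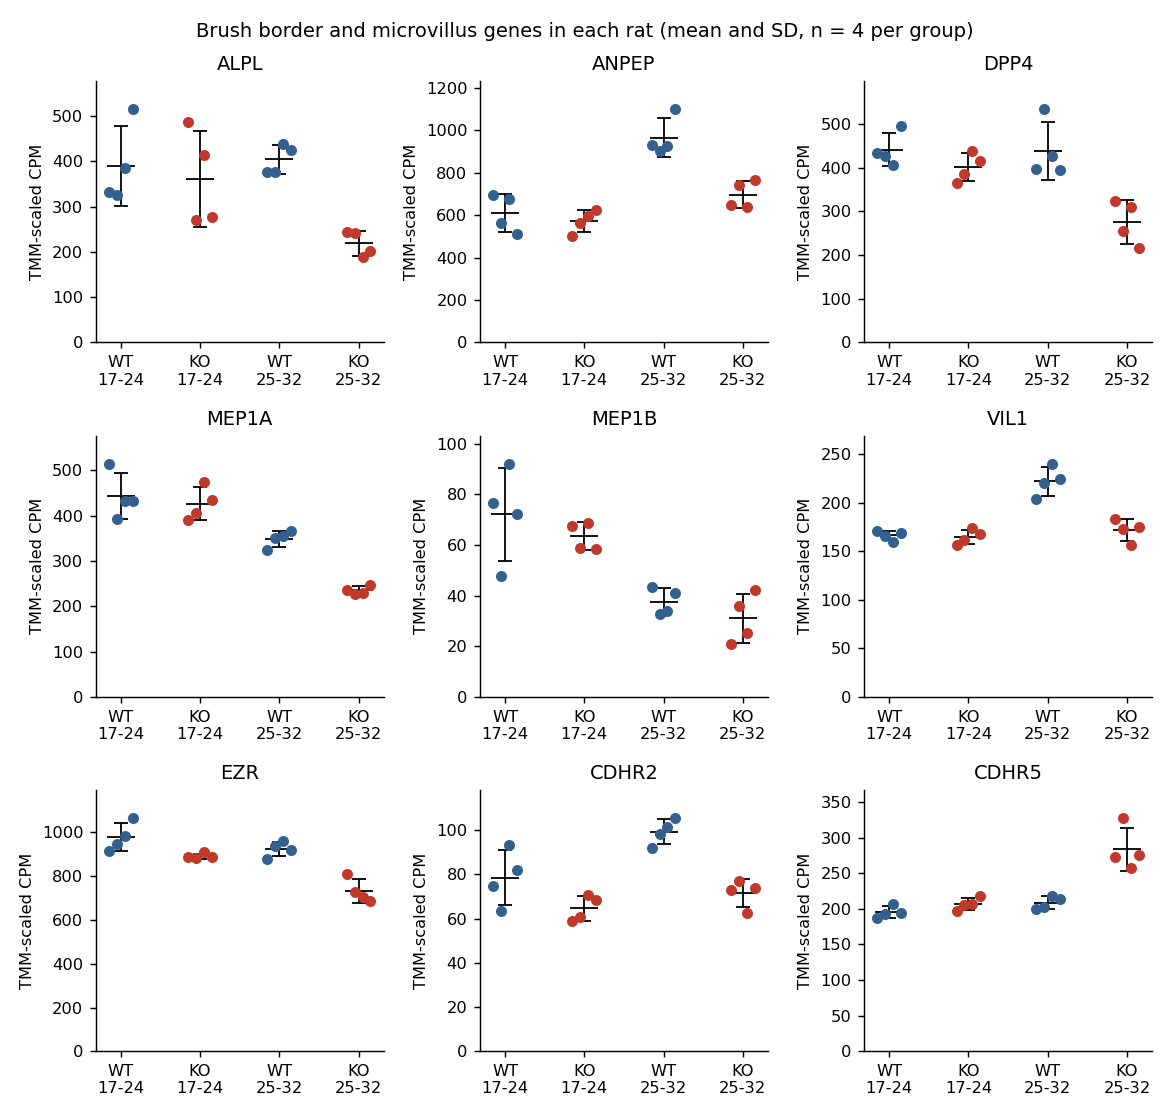
CPM after TMM scaling (linear axis from 0) of 9 genes in each of 16 rats, in 4 groups of 4: Ctns WT (blue) and Ctns KO (red) of rats 17 to 24 and of rats 25 to 32, with mean and SD in black. In rats 25 to 32 the red points lie below the blue ones for 7 genes and above them for CDHR5. For MEP1B, KO rats 26 and 30 lie below the blue points and KO rats 28 and 32 lie among them.

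Among the membrane enzymes, ALPL showed the lowest log2 fold change in rats 25 to 32. It stood at 243, 242, 189 and 203 CPM in Ctns KO rats 26, 28, 30 and 32 and at 376, 377, 438 and 426 CPM in Ctns WT rats 25, 27, 29 and 31. All 4 KO rats lay below all 4 WT rats, and the log2 fold change was -0.88 (SE 0.10, adjusted p = 6.05e-05). In rats 17 to 24 the KO values were 486, 271, 413 and 276 CPM and the WT values 332, 326, 385 and 515 CPM. Both genotypes were widely spread there, with a KO rat near the top and another near the bottom (log2 fold change -0.10, SE 0.24, adjusted p = 0.88).

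MEP1A, whose product is secreted or held at the membrane by the beta subunit, differed with little spread within each genotype. Its KO values in rats 25 to 32 were 237, 227, 230.2 and 248 CPM and its WT values 325, 352, 355 and 365 CPM. The KO rats lay close together and all below the lowest WT rat (log2 fold change -0.57, SE 0.06, adjusted p = 4.86e-05). Among rats 17 to 24, MEP1A ran from 391 to 475 CPM in KO and from 393 to 515 CPM in WT, with a log2 fold change of -0.05 (adjusted p = 0.824). DPP4, which removes dipeptides from peptide ends, stood at 323, 255, 310.1 and 216 CPM in KO and at 397, 534, 426 and 394 CPM in WT of rats 25 to 32. The groups did not overlap, although WT rat 27 stood well above the other WT rats (log2 fold change -0.66, SE 0.14, adjusted p = 0.00364). For rats 17 to 24, DPP4 ran from 364 to 438 CPM in KO and from 406 to 495 CPM in WT (log2 fold change -0.13, adjusted p = 0.377).

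ANPEP, which trims single residues from peptides, was lower in KO of rats 25 to 32 and also differed between the WT groups. KO rats held 646, 739, 636 and 765 CPM and WT rats 930.1, 901, 926 and 1099 CPM, and the highest KO rat stayed below the lowest WT rat (log2 fold change -0.47, SE 0.09, adjusted p = 0.00161). ANPEP in rats 17 to 24 ran from 503 to 622 CPM in KO and from 509.5 to 696 CPM in WT (log2 fold change -0.09, adjusted p = 0.709). KO rats 25 to 32 thus lay at or above most rats 17 to 24 of either genotype. MEP1B was the exception among the enzymes: KO rats 25 to 32 held 21, 36, 25.2 and 42 CPM and WT rats 43.2, 32.8, 33.8 and 40.8 CPM. The groups overlapped and MEP1B was not called in any KO against WT comparison in rats (log2 fold change -0.28, SE 0.19, adjusted p = 0.255 in rats 25 to 32). Over all 16 rats, DPP4 was the enzyme gene past the threshold, with a lowest, median and highest value of 216, 343 and 438 CPM in KO and of 394, 426 and 534 CPM in WT (log2 fold change -0.38, SE 0.12, adjusted p = 0.033). Without single animals this call was lost in 9 of 16 cases. ALPL missed it at -0.45 (adjusted p = 0.0621, and 0.0387 by DESeq2), as did ANPEP at -0.31 (adjusted p = 0.113), MEP1A at -0.26 (adjusted p = 0.262) and MEP1B at -0.22 (adjusted p = 0.584).

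Both microvillus core genes were lower in KO of rats 25 to 32. VIL1 stood at 183, 173, 157 and 175 CPM in Ctns KO rats 26, 28, 30 and 32 and at 204, 221, 240.2 and 224 CPM in Ctns WT rats of that range. The KO rats lay below all WT rats (log2 fold change -0.37, SE 0.07, adjusted p = 0.00181). Among rats 17 to 24, the KO range of 157 to 174 CPM enclosed the WT range of 159.8 to 171 CPM, and the log2 fold change was -0.01 (SE 0.05, adjusted p = 0.967).

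EZR was the gene whose groups were apart in both ranges. KO rats 25 to 32 held 811, 726, 706 and 689 CPM and WT rats 881, 937, 960.4 and 918 CPM (log2 fold change -0.33, SE 0.07, adjusted p = 0.00376). KO rats 17 to 24 held 886, 884, 909.5 and 887 CPM and WT rats 916, 947, 984 and 1066 CPM. The 4 KO values lay close together, just under the lowest WT value, and the log2 fold change of -0.13 did not pass (SE 0.06, adjusted p = 0.246). Over all 16 rats EZR was called lower at -0.23 (SE 0.07, adjusted p = 0.022), with a median of 847 CPM in KO and 942 CPM in WT and overlapping ranges. VIL1 missed the threshold over all rats at -0.21 (SE 0.08, adjusted p = 0.0765).

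The partner cadherins moved in opposite directions. CDHR2 stood at 72.9, 76.9, 62.5 and 73.6 CPM in KO and at 91.9, 98.3, 101 and 105 CPM in WT of rats 25 to 32, with every KO rat below every WT rat (log2 fold change -0.47, SE 0.07, adjusted p = 0.000519). CDHR5 stood at 273, 328, 258 and 275 CPM in KO and at 200.3, 203, 218 and 214 CPM in WT, with every KO rat above every WT rat (log2 fold change 0.44, SE 0.08, adjusted p = 0.00114). Over all 16 rats, CDHR2 was called lower at -0.38 (SE 0.09, adjusted p = 0.00599) and CDHR5 higher at 0.28 (SE 0.09, adjusted p = 0.0338). The lowest, median and highest values of CDHR2 were 58.9, 69.4 and 76.9 CPM in KO and 63.6, 92.5 and 105 CPM in WT. Those of CDHR5 were 197, 238 and 328 CPM in KO and 187, 202 and 218 CPM in WT. Both pairs of ranges overlapped, and the CDHR5 call was lost in 7 of 16 cases when single animals were left out.

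CDHR2 in rats 17 to 24 was at 58.9, 60.9, 70.6 and 68.3 CPM in KO and at 74.6, 63.6, 93 and 82.1 CPM in WT. WT rat 19 lay among the KO rats, and the log2 fold change was -0.27 (SE 0.11, adjusted p = 0.182). CDHR5 ran from 197 to 218 CPM in KO and from 187 to 207 CPM in WT there (log2 fold change 0.09, SE 0.05, adjusted p = 0.374). The plot of log2 fold changes sets the number ranges beside the mice.

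**Figure D3:**
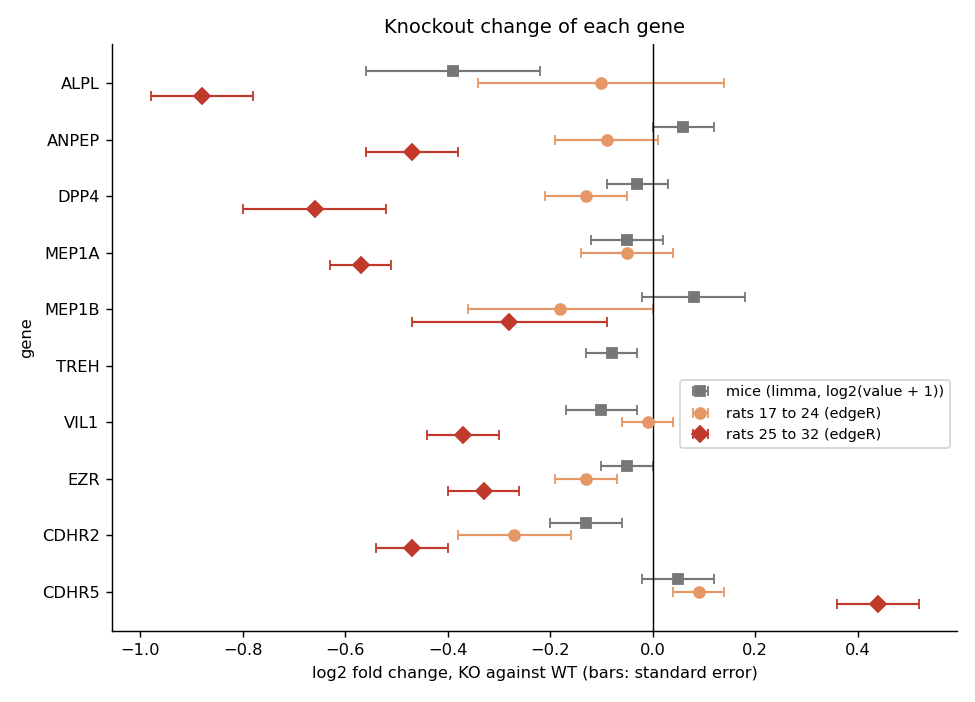
Log2 fold change of Ctns KO against WT (x axis, bars are standard errors) for each gene (y axis) in mice (grey squares, limma on log2(value + 1)), rats 17 to 24 (orange circles, edgeR) and rats 25 to 32 (red diamonds, edgeR). Red diamonds run from -0.88 for ALPL to 0.44 for CDHR5, while the orange circles lie between -0.27 and 0.09; the mouse scale understates changes of low values.

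Because both cadherins are counted in the same library, their ratio does not depend on the scaling of that library. The ratio was chosen after the values were seen and is given without a test. CDHR5 reads per CDHR2 read were 3.74, 4.26, 4.13 and 3.74 in Ctns KO rats 26, 28, 30 and 32 and 2.18, 2.07, 2.15 and 2.03 in Ctns WT rats 25, 27, 29 and 31. Means were 3.97 ± 0.267 and 2.11 ± 0.0699 (SD, n = 4 each), with a wide gap between the groups. Among rats 17 to 24 the ratio was 3.21 ± 0.196 in KO (range 2.94 to 3.37) and 2.54 ± 0.358 in WT (range 2.22 to 3.04), and WT rat 19 fell inside the KO range. In mice it was 3.52 ± 0.309 in KO (range 3.13 to 3.83) and 2.94 ± 0.533 in WT (range 2.41 to 3.46), with overlap. The ratio counts reads and not molecules, since the gene lengths differ.

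**Figure D4:**
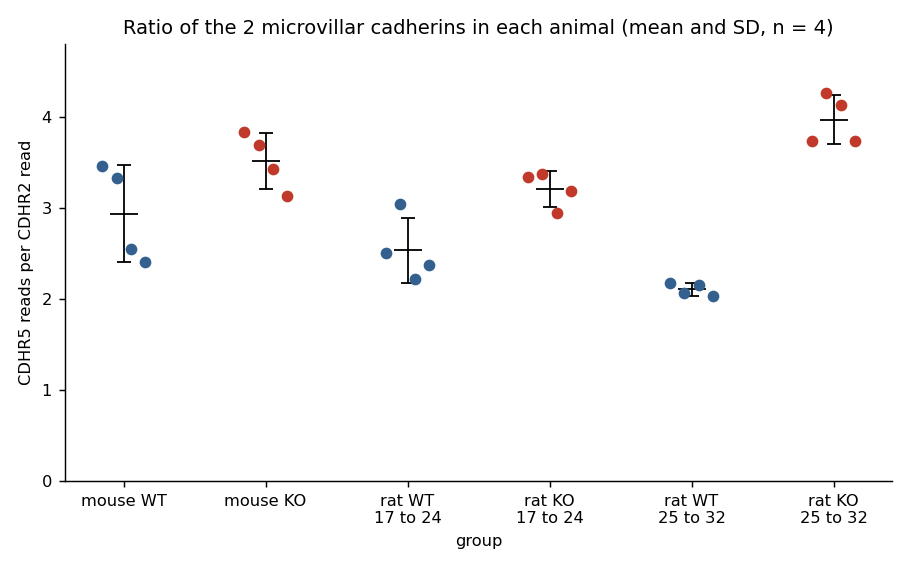
CDHR5 reads per CDHR2 read (linear axis from 0) in each animal of 6 groups of 4, Ctns WT in blue and Ctns KO in red, with mean and SD in black. The groups of rats 25 to 32 are furthest apart, with WT from 2.03 to 2.18 and KO from 3.74 to 4.26.

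Whether the KO change differed between the number ranges was tested as an interaction in 1 model of all 16 rats. It was more negative in rats 25 to 32 for 4 of 9 genes, where 7.64% of 11839 symbols were called lower, and more positive for 1, where 7.1% were called higher. The smallest adjusted p-values were those of MEP1A at -0.52 on the log2 scale (SE 0.11, adjusted p = 0.00619), VIL1 at -0.36 (SE 0.09, adjusted p = 0.011) and CDHR5 at 0.35 (SE 0.09, adjusted p = 0.0199), which stayed past the threshold without any single rat. ALPL at -0.78 (SE 0.25, adjusted p = 0.0486) and DPP4 at -0.53 (SE 0.17, adjusted p = 0.0423) passed narrowly, and lost the call in 12 and 10 of 16 cases when single rats were left out. ANPEP at -0.38 (adjusted p = 0.0849), EZR at -0.20 (adjusted p = 0.122), CDHR2 at -0.20 (adjusted p = 0.328) and MEP1B at -0.10 (adjusted p = 0.836) did not pass, so a difference between the ranges was not shown for these genes.

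Ctns WT rats of the number ranges also differed from each other. WT rats 25 to 32 were higher than WT rats 17 to 24 in 3 of 9 genes, where 11.7% of 11839 symbols were called higher, and lower in 2, where 9.43% were called lower. ANPEP stood at 964 ± 90.9 CPM in WT rats 25 to 32 and at 611 ± 90.1 CPM in WT rats 17 to 24 (SD, n = 4 each), a log2 difference of 0.66 (SE 0.10, adjusted p = 0.000201). VIL1 was higher by 0.42 (SE 0.06, adjusted p = 9.76e-05) and CDHR2 by 0.34 (SE 0.10, adjusted p = 0.0182), and the groups of CDHR2 overlapped.

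Both meprin subunits were lower in WT rats 25 to 32. MEP1B stood at 37.6 ± 5.18 CPM against 72.1 ± 18.5 CPM, a log2 difference of -0.94 (SE 0.20, adjusted p = 0.00343), and MEP1A at 349 ± 17.3 CPM against 443 ± 51.5 CPM, a log2 difference of -0.34 (SE 0.08, adjusted p = 0.0044). ALPL, DPP4, EZR and CDHR5 had WT log2 differences of 0.05, -0.01, -0.08 and 0.10 and were not called. These WT rats are the controls of the KO comparisons above, so for ANPEP, VIL1 and CDHR2 the KO fall in rats 25 to 32 was measured against a higher control level, whereas the control levels of MEP1A were lower. Of all symbols tested between the same WT groups, 11.7% were called higher and 9.43% lower in rats 25 to 32. There, 5 of 7 proximal tubule markers, 4 of 6 macrophage markers and 4 of 6 lymphocyte markers were higher. So were 2 of 4 tubule injury markers and 1 of 6 fibroblast markers. Lower were 1 of 7 proximal tubule markers, 1 of 4 injury markers, 3 of 3 distal nephron markers and 3 of 5 podocyte and endothelial markers. Among the injury markers, HAVCR1 was at 1.52 (SE 0.22, adjusted p = 0.000134 by edgeR) and CLU at -0.28 (adjusted p = 0.0234). The part of these markers in the WT differences was not tested.

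Between species, the KO change was compared over the 14264 symbols in both tables, with the rats of both number ranges pooled. Of 9 brush border genes, 0 differed between rats and mice in limma, where 4.02% of these symbols were called in either direction. The count at an unadjusted p under 0.05 was 0, and edgeR on the reads of both species also called 0. The differences (rat minus mouse) ran from -0.29 for DPP4 (SE 0.17, adjusted p = 0.386) to 0.20 for CDHR5 (SE 0.13, adjusted p = 0.447). The genes called in rats are therefore not shown to have changed differently in mice.

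Other genes of the brush border were read from lists chosen by function. Of 7 other brush border surface genes tested in rats 25 to 32, namely 6 hydrolases and CLTRN, 5 were lower and 1 was higher, with a median log2 fold change of -0.34, beside 22.1% of all tested symbols lower and 21.8% higher. The falls were in NT5E, the ectonucleotidase that makes adenosine, at -0.76 (SE 0.09, adjusted p = 0.000111), XPNPEP2, a proline aminopeptidase, at -0.65 (SE 0.09, adjusted p = 0.000221), CLTRN, an amino acid transporter partner, at -0.57 (SE 0.09, adjusted p = 0.000411), DPEP1, a dipeptidase, at -0.34 (SE 0.07, adjusted p = 0.00213) and ENPP3 at -0.21 (SE 0.08, adjusted p = 0.0423). The gene for carboxypeptidase M rose by 0.34 (SE 0.10, adjusted p = 0.0208). Of these 7, 0 were called by edgeR in rats 17 to 24, with 3 at an unadjusted p under 0.05, and 1, CLTRN, was called by DESeq2. DPEP1 was at -0.53 in those rats (SE 0.20, adjusted p = 0.179 by edgeR). Its interaction with the number range was not called (0.19, adjusted p = 0.557). Its level in WT rats 25 to 32 was lower than in WT rats 17 to 24, by a log2 difference of -1.01 (adjusted p = 0.000116). Over all rats NT5E stood at 74.1 ± 17.6 CPM in KO and at 104 ± 11 CPM in WT (SD, n = 8 each, log2 fold change -0.49, adjusted p = 0.00686).

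Of 11 other microvillus core and linkage genes tested in rats 25 to 32, 4 were lower and 1 was higher, beside 22.1% and 21.8% of all tested symbols, and the median of -0.02 lay near that of all symbols. EPS8, an actin capping and bundling protein of microvillus tips, fell by 0.84 on the log2 scale (SE 0.16, adjusted p = 0.00179), and MYO6, a motor that moves toward the microvillus base, fell by 0.80 (SE 0.12, adjusted p = 0.00055). ESPN, an actin bundler, was at -0.43 (SE 0.09, adjusted p = 0.00259) and was the gene of this list called in rats 17 to 24, at -0.24 (SE 0.06, adjusted p = 0.0298). RDX, the ezrin relative radixin, was at -0.33 (SE 0.08, adjusted p = 0.00952), while MSN, its relative moesin, was at -0.02 (adjusted p = 0.878). BAIAP2L1 rose by 0.24 (SE 0.08, adjusted p = 0.0278), and the bundlers PLS1 and PLS3 were not called, at -0.13 and 0.15. Between the WT groups, ESPN was higher in rats 25 to 32, at 0.35 (adjusted p = 0.00434 by edgeR). PLS3 was lower there, at -0.51 (adjusted p = 8.44e-05 by edgeR), and EPS8, MYO6 and RDX were not called.

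The cytoplasmic partners of the cadherins followed CDHR2 in sign and not CDHR5. Of 3 tested in rats 25 to 32, MYO7B was called lower at -0.23 (SE 0.06, adjusted p = 0.0154) and USH1C at -0.24 (SE 0.09, adjusted p = 0.0456). CALML4 was at -0.29 (adjusted p = 0.0764). Of all tested symbols, 22.1% were called lower in these rats. Of 5 genes listed for the apical PDZ scaffold, which holds transporters at the brush border, 2 were lower, beside the same share. They were PDZD3 at -0.77 (SE 0.09, adjusted p = 7.16e-05) and PDZK1 at -0.66 (SE 0.09, adjusted p = 0.000276). SLC9A3R1, which binds ezrin, was at -0.24 (adjusted p = 0.0549). PDZK1 was also called in rats 17 to 24, at -0.27 (SE 0.07, adjusted p = 0.0298). By edgeR, USH1C was higher in WT rats 25 to 32 than in WT rats 17 to 24, by 0.32 (adjusted p = 0.0173). So were CALML4 by 0.62 (adjusted p = 0.000583), PDZK1 by 0.28 (adjusted p = 0.0232) and SLC9A3R1 by 0.26 (adjusted p = 0.0239). The KO values of these genes in rats 25 to 32 were thus measured against higher control levels. MYO7B and PDZD3 were not called between the WT groups, at -0.10 and -0.03.

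Of 5 transcription factors known from such epithelia and tested in rats 25 to 32, 3 were lower in KO and 1 was higher. Of all tested symbols, 22.1% were lower and 21.8% higher. HNF4G was lower at -1.14 (SE 0.17, adjusted p = 0.000346), as was HNF4A at -1.10 (SE 0.13, adjusted p = 0.000122). KLF5 was higher at 1.13 (SE 0.27, adjusted p = 0.00642). In rats 17 to 24 edgeR called none of HNF4A at -0.28 (adjusted p = 0.0842), HNF4G at -0.10 (adjusted p = 0.623) and KLF5 at -0.05 (adjusted p = 0.912), and DESeq2 called HNF4A at -0.29 (adjusted p = 0.0316). Between the WT groups, edgeR called HNF4G higher in rats 25 to 32, at 0.52 (adjusted p = 0.0136). HNF4A at 0.34 (adjusted p = 0.0514) and KLF5 at -0.49 (adjusted p = 0.159) were not called there. Over all rats HNF4A stood at 203 ± 41.9 CPM in KO and at 326 ± 56.8 CPM in WT (SD, n = 8 each, log2 fold change -0.69, adjusted p = 0.00116). HNF4G was also called lower over all rats, at -0.63 (adjusted p = 0.0075 by edgeR). KLF5 was not called over all rats, at 0.55 (SE 0.21, adjusted p = 0.0632 by edgeR). In mice, 0 of the 38 listed genes were called by limma, beside 4.32% of all symbols, with 9 at an unadjusted p under 0.05. On the recovered reads edgeR called 3 of them, beside 1198 of all 13442 symbols it tested. These were MGAM at -0.34, PDZD3 at -0.29 and HNF4A at -0.32 (adjusted p = 0.0162, 0.0263 and 0.0395). DESeq2 called 6, these and NT5E, CLTRN and MSN, beside 1520 of all 14593 symbols it tested.

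**Figure D5:**
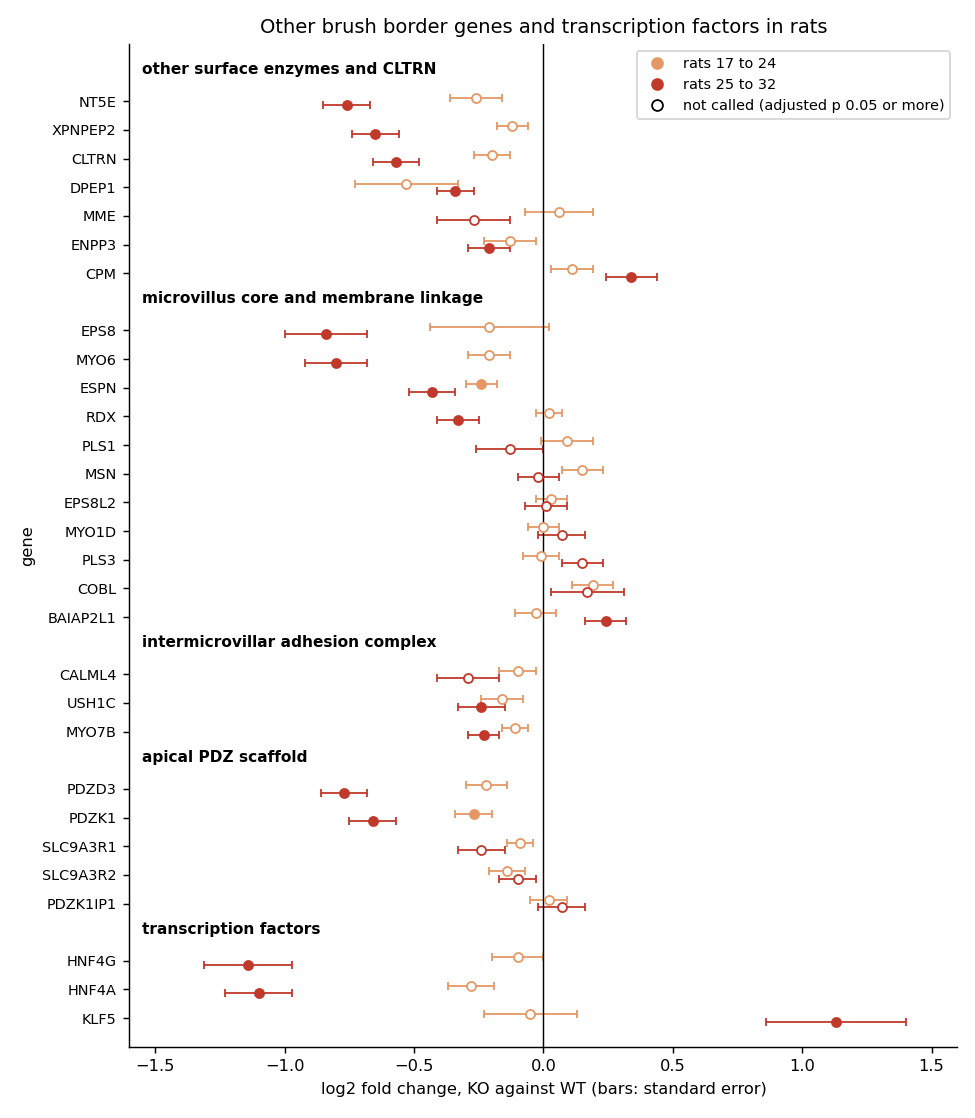
Log2 fold change of Ctns KO against WT (x axis, bars are standard errors) for genes of 5 lists (y axis) in rats 17 to 24 (orange) and rats 25 to 32 (red), with filled points past an adjusted p of 0.05 in edgeR. Red points reach -1.14 for HNF4G and 1.13 for KLF5, and among orange points ESPN and PDZK1 are filled.

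Cell type markers also differed between genotypes, including in mice and in rats 17 to 24, where no brush border gene was called. Of all tested symbols, 21.8% were called higher and 22.1% lower in rats 25 to 32. In either direction, 7.26% were called in rats 17 to 24. In mice limma called 4.32% in either direction, edgeR 1198 of 13442 and DESeq2 1520 of 14593. Of 7 proximal tubule markers tested in rats 25 to 32, 6 were lower, and their summed level was 12680 to 15870 CPM in KO and 23550 to 26490 CPM in WT. The sum was 15730 to 16530 CPM in KO and 18410 to 21010 CPM in WT of rats 17 to 24, with 2 of 7 called lower. In mice it was 400.1 to 454 scaled units in KO and 476 to 586 in WT, with 0 of 9 called by limma, 1 at an unadjusted p under 0.05, 1 called by edgeR and 2 by DESeq2. In rats 25 to 32, 4 of 4 tubule injury markers, 5 of 6 macrophage markers, 5 of 5 lymphocyte markers and 5 of 6 fibroblast markers were higher in KO. Summed macrophage markers ran from 255 to 357 CPM in KO and from 120 to 146 CPM in WT of that range, and summed fibroblast markers from 474 to 533 CPM and from 258 to 297 CPM. Distal nephron markers were higher for 2 of 3, and podocyte and endothelial markers lower for 2 of 5. Among rats 17 to 24, 4 of 4 injury, 5 of 6 macrophage, 4 of 5 lymphocyte and 2 of 6 fibroblast markers were higher in KO. In mice 3 of 5 injury, 4 of 6 macrophage and 3 of 6 fibroblast markers were higher in KO. The lymphocyte markers there had a median log2 fold change of 0.01, on a scale that understates changes of such low values. Their summed level was 0.175 to 0.253 scaled units in KO and 0.134 to 0.186 in WT mice. No marker was at 0 in any group. The part of these shifts in the brush border results was not tested.

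Likeness was measured across the 16 rats as the root mean square difference of centred log2 CPM, over 8056 symbols, and is a description in which all points share their libraries. Nearest to CDHR5 was DDX41 (0.051), nearest to EZR was MTM1 (0.05), nearest to VIL1 was ARL6IP1 (0.055) and nearest to DPP4 was FCHO2 (0.065). CDHR2 lay nearest to MCOLN1 (0.086), ANPEP to ABHD14B (0.091), MEP1A to PDHA1 (0.115), ALPL to GALNT14 (0.17) and MEP1B to SLC5A10 (0.253). Within the set, CDHR2 and VIL1 were the closest pair (0.154), and DPP4 and EZR came next (0.187), as did ANPEP and CDHR2 (0.187). The member most like CDHR5 was VIL1, at 0.298, and the member most like MEP1B was MEP1A, at 0.344.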

How the data were processed

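Per the paper's methods, stranded mRNA libraries were made from 100 ng of kidney cortex RNA and sequenced as paired reads of 100 nucleotides. The processing notes name bcl2fastq 2.20, STAR 2.7.3, DESeq2 1.24.0, R 3.6.1 and the builds rn5 and mm10, without their roles. For mice the authors deposited a scaled signal per gene, which the values show to be (reads + 0.5) over (75th percentile of the library + 0.5), and 99% of values gave whole reads (tolerance 0.01). For rats the authors deposited estimated counts, with a constant added to every value, which was taken off before rounding to whole numbers. In rats 97.7% of values were whole before rounding, and all values of the genes described were whole in both tables. Symbols are those of human genes in both.

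Mouse values were tested with limma 3.58.1 (trend, robust) on log2(value + 1), unfiltered, a scale that understates changes of low genes. Rat counts were tested with edgeR 4.0.16 (quasi-likelihood, TMM, filterByExpr with a minimum count of 10), and DESeq2 1.42.0 served as an alternative, in R 4.3.3. Species were compared with limma on rat reads scaled like the mouse table. Tests ran over all symbols with Benjamini-Hochberg adjustment and a threshold of 0.05, and were tested on simulated data. Alternatives were another scaling, filter, pseudocount and tool, the number range as a covariate, and each animal left out. Genes named beyond the 10 were, per list, the 3 with the largest change past the threshold over all rats, others on the lists being named after their values were seen, and for each gene its nearest symbol by likeness. Some listed genes are not reported here by name and stay in the counts. The genes and lists were chosen with earlier results of these data known. Depth bounds counting error only, and the number of animals limits the group differences. No 2 libraries of a group agreed within sampling noise, and columns mapped to samples by their titles.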

Additional observations from a re-analysis of the deposited data

Results flagged for a closer look

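In 74 groups of 4 or 8 animals checked for a single animal far from the others, 3 values stood apart by Dixon's criterion, and chance alone flags about 1 in 20 groups. ANPEP was 1099 CPM in WT rat 31, above the other WT rats 25 to 32, which lay between 901 and 930.1 CPM. MEP1B was 1.58 in KO mouse 5, below the other KO mice, and EZR was 909.5 CPM in KO rat 22, above the other KO rats 17 to 24. The KO change differed between the number ranges of rats by an interaction test for ALPL (-0.78 on the log2 scale), DPP4 (-0.53), MEP1A (-0.52), VIL1 (-0.36) and CDHR5 (0.35).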

How the results depend on the processing

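In rats 25 to 32, 8 of 9 brush border genes were called under every alternative run, leaving out each animal included. The limits are the 4 animals per group, the unknown meaning of the number ranges and the unstated tissue purity. Of 211 values recomputed for these genes under other settings, 201 kept their direction and side of the threshold, 6 gained a call, 3 lost it and 1 changed direction. DESeq2 called 1 gene in mice (limma 0). The number range as a covariate called 8 genes over all rats. With DESeq2 size factors the interaction called 3 genes, since ALPL (adjusted p = 0.051) and DPP4 (adjusted p = 0.0501) lost the call, and ALPL also lost it without a filter (adjusted p = 0.0625). The species difference of ALPL was 0.02 with edgeR. The causes of these shifts were not tested.

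Leaving out single animals gave 2 to 5 called genes over all rats, 0 to 1 in rats 17 to 24 (1 without WT rat 19, CDHR2, adjusted p = 0.03) and 3 to 6 for the interaction. Over all rats 2 genes were called without KO rats 26, 28, 30 or 32 or WT rats 27 or 29. For the interaction 3 were called without KO rats 22, 28 or 32 or WT rats 17, 19, 21, 27 or 29. Among log2 changes near 0 that changed sign in 28 of 872 cases, the ranges were -0.10 to 0.01 for MEP1A and -0.00 to 0.09 for CDHR5 in mice. They were -0.28 to 0.06 for ALPL, -0.10 to 0.03 for MEP1A, -0.03 to 0.01 for VIL1 and -0.35 to 0.02 for EPS8 in rats 17 to 24, EPS8 being outside that count. They were -0.27 to 0.05 for the interaction of MEP1B, -0.02 to 0.22 for ALPL and -0.12 to 0.05 for DPP4 between WT ranges, and -0.15 to 0.11 for ALPL and -0.07 to 0.03 for VIL1 between species. The WT difference of CDHR2 lost its call in 4 of 16 cases. The EZR call over all rats was lost in 2 of 16 cases and that of MYO7B in 11.

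Calls over all symbols in mice numbered 751 with limma, 1198 with edgeR and 1520 with DESeq2. Between species they numbered 573, and 262 with a filter on low values and 307 with edgeR.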

Other observations

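The alpha and beta subunits of meprin are made from separate genes, and their read ratio overlapped between genotypes within each set of animals. MEP1A reads per MEP1B read were 8.16 ± 2.53 in Ctns KO (range 5.9 to 11.3) and 9.43 ± 1.5 in Ctns WT (range 7.52 to 10.7) of rats 25 to 32 (SD, n = 4 each), with overlap. It was 6.75 ± 0.683 in KO and 6.42 ± 1.49 in WT of rats 17 to 24, and in mice 12.9 ± 0.939 in KO and 14.9 ± 2.25 in WT. These ratios were chosen after the values were seen and were not tested.

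Spread within groups differed between the genes. Among rats 17 to 24, the coefficient of variation was 1.37% for EZR and 29.2% for ALPL in KO, and 2.89% for VIL1 and 25.6% for MEP1B in WT. In KO rats 25 to 32, it was 3.88% for MEP1A and 31.1% for MEP1B.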
